A study of Mus musculus with 12 samples.

Results

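Supporting cells of the organ of Corti surround the sensory hair cells and are told apart by a small set of regulators, receptors and transporters. Here 8 of these identity genes, Sox2, Sox9, Sox10, Prox1, Fgfr3, Lgr5, Lgr6 and Slc1a3, were followed in the organ of Corti of clarin-mutant mice. They were picked by symbol out of 55348 genes counted, and all 8 were among the 19052 genes that passed the filter on low counts.

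RNA of the organ of Corti was sequenced at P21 in 4 genotypes of 3 libraries each, 12 in all, with the question of what is lost or changed without clarin-1, clarin-2 or both, the membrane proteins of the hair bundle encoded by Clrn1 and Clrn2. Clrn1-/- mice lack exon 4 of Clrn1 in every cell, since a floxed allele was recombined through PGK-cre. Clrn2-/- mice are homozygous for the clarinet allele, a nonsense change early in the coding sequence of Clrn2, and Clrn1-/-Clrn2-/- mice came from crossing both lines. Wild-type mice came from breedings of their own and were not littermates, so breeding and genotype cannot be told apart. The stria vascularis and the modiolus were removed at dissection, and how many mice went into a library is not given in the sources used here, so p-values measure the spread between these libraries.

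In the mature organ of Corti, pillar cells and Deiters' cells hold the outer hair cells, while border and inner phalangeal cells wrap the inner hair cells. Sox2, Sox9 and Sox10 are transcription factors of the SRY-box family that are kept in supporting cells after hair cells have switched them off, and Prox1 is a homeodomain transcription factor of pillar and Deiters' cells. Fgfr3 is a tyrosine kinase receptor for fibroblast growth factors that marks the same cells. Lgr5 and Lgr6 are receptors for R-spondins, secreted proteins that raise Wnt signalling. Slc1a3 encodes GLAST, the glutamate transporter of the cells around inner hair cells.

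Libraries held 30008679 to 41049302 counts on genes, and levels are given as CPM, a gene's counts scaled to a common library total. Clrn1 stood at 23.8 to 28.6 CPM in Wild-type, 2.69 to 3.04 CPM in Clrn1-/-, 25.8 to 31.5 CPM in Clrn2-/- and 1.77 to 2.71 CPM in Clrn1-/-Clrn2-/- libraries, so the 6 libraries without Clrn1 lay below the other 6. Clrn2, a gene of low counts, stood at 3.03, 1.89 and 3.24 CPM in Wild-type, 0.854, 0.854 and 1.04 CPM in Clrn1-/-, 1.26, 1.38 and 1.04 CPM in Clrn2-/- and 1.18, 0.921 and 1.13 CPM in Clrn1-/-Clrn2-/-. It was lower than Wild-type in Clrn1-/- too (log2 fold change -1.57 ± 0.22, adjusted p = 7.41e-05), so a low Clrn2 count did not set the Clrn2-/- libraries apart from the Clrn1-/- libraries. None of the 21 hair cell markers and none of the 30 further supporting cell and tectorial membrane genes listed was at 0 in all 12 libraries.

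A gene was called where its adjusted p, from edgeR's quasi-likelihood test over all 19052 genes, was at most 0.05 and its change was at least 1.5-fold. In Clrn1-/-Clrn2-/- mice Lgr6 and Fgfr3 were called higher and Prox1 was called lower than in Wild-type, against a background of 5.88% of all tested genes called higher and 4.02% called lower. In Clrn1-/- mice Lgr6 was called higher and no member was called lower (background 3.52% higher and 3.7% lower), and in Clrn2-/- mice the result was the same, with Lgr6 called higher and 0 members lower (1.24% and 1.42%). By adjusted p alone, with no minimum fold, 6 members were higher and Prox1 was lower in Clrn1-/-Clrn2-/- mice (background 19.1% higher and 17.9% lower). That rule found 6 higher and Prox1 lower in Clrn1-/- mice (13.6% and 13.3%), and Sox9, Fgfr3 and Lgr6 higher with Prox1 lower in Clrn2-/- mice (7.14% and 7.07%). Lgr5 passed neither rule in any mutant. The gene lists read below were chosen with earlier results of these data known. Their counts are to be set against the same background shares.

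The 3 mutant and 3 Wild-type libraries did not overlap for 7 of the 8 members in Clrn1-/-Clrn2-/- mice, for 7 in Clrn1-/- mice and for 5 in Clrn2-/- mice. Over all tested genes, 48.2%, 40.2% and 29% did not overlap in the same comparisons. The median log2 fold change of the 8 members was 0.409 in Clrn1-/-Clrn2-/-, 0.175 in Clrn1-/- and 0.129 in Clrn2-/- mice, beside 0.001, -0.003 and -0.002 over all genes. All 3 comparisons share the Wild-type libraries.

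**Figure D1:**
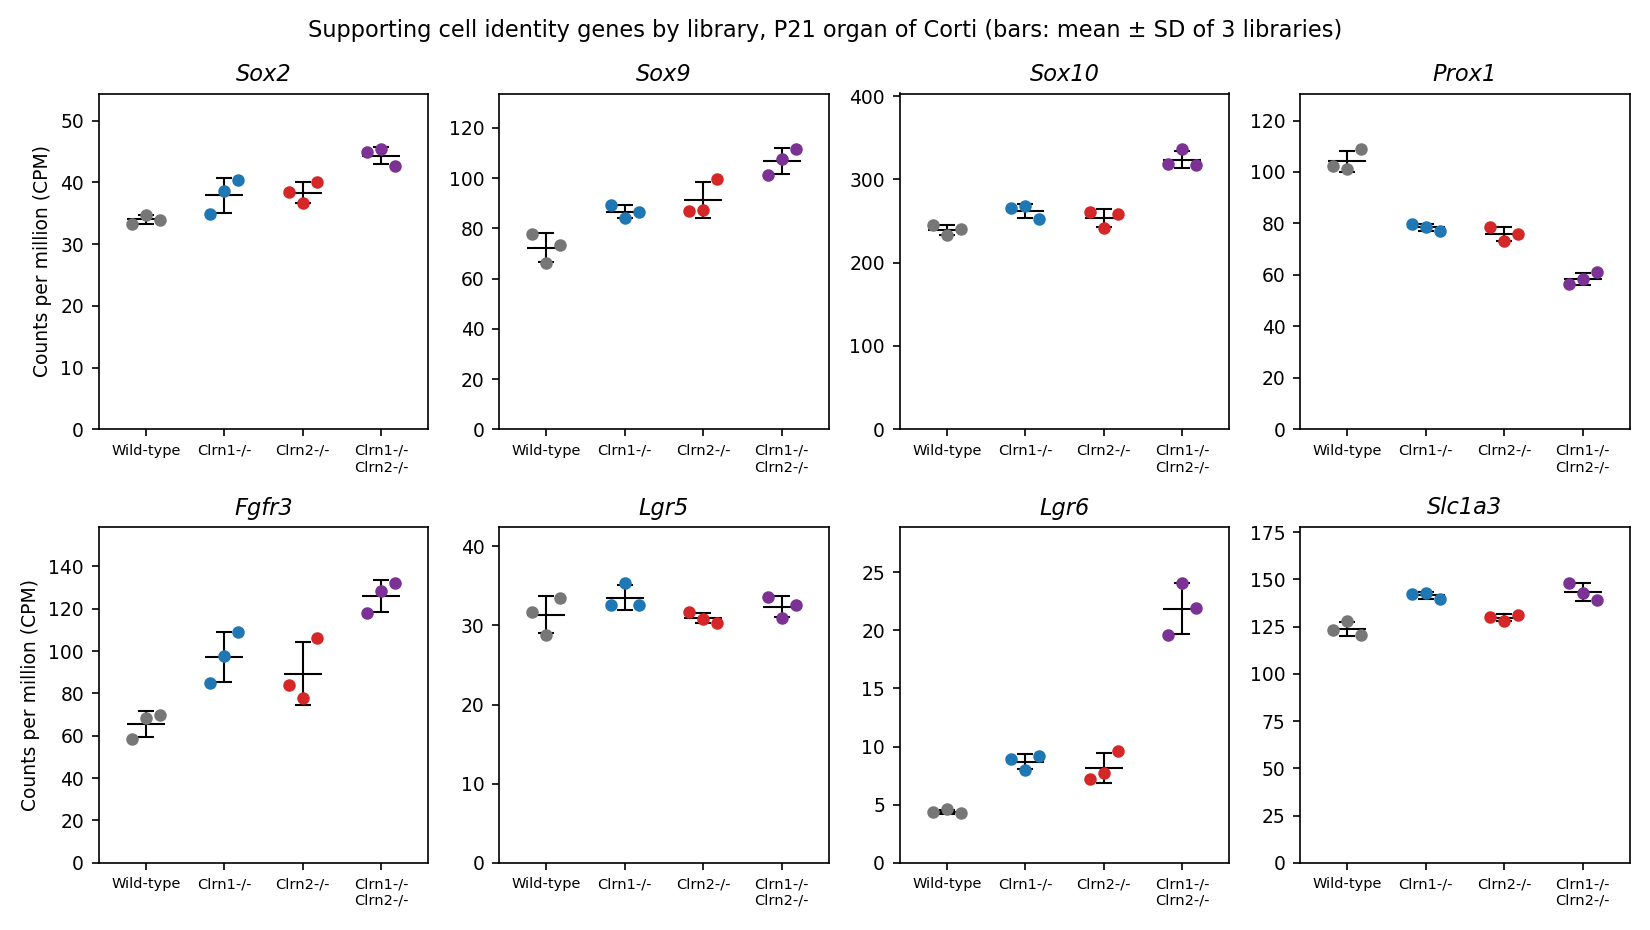
Level of each of the 8 genes in CPM (linear axis from 0) by genotype, with a point per library and the mean ± SD of 3 libraries. Prox1 steps down from Wild-type to the Clrn1-/-Clrn2-/- libraries, Lgr6 and Fgfr3 step up, and the Lgr5 libraries of the 4 genotypes overlap.

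The 250 bases before the start of Lgr6, the member with the largest rise, and of Prox1, the member that fell, were read from RefSeq on GRCm38.p6, 5′ to 3′ on the strand of the gene. Capitals mark matches to 4 short motifs searched on both strands, namely ACAAT of SOX factors, CTTTGA of TCF/LEF factors, GTGGGAA of RBPJ and CCGGAAG of ETS factors.
Lgr6, chr1:135105277-135105526, minus strand: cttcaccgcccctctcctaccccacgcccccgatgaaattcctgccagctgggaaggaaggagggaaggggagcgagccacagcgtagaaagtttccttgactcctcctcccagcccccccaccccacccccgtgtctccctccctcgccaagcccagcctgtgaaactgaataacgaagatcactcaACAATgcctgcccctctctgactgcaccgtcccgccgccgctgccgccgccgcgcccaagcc
Prox1, chr1:190170828-190171077, minus strand: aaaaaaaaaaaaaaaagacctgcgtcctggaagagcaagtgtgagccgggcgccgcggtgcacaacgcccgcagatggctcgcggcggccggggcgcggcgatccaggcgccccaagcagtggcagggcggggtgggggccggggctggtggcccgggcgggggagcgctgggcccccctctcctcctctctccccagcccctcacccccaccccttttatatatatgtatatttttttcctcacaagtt
The Lgr6 stretch holds 1 SOX match and the Prox1 stretch holds none of the 4 motifs. Among 32851 stretches of the same length, 27.7% hold the SOX motif, 13.8% the TCF/LEF motif, 5.42% the RBPJ motif and 6.91% the ETS motif. The table used held 5 of the 8 members, and of the 3 not printed, Slc1a3 had 1 SOX match while Sox2 and Fgfr3 had no match to any motif. A match describes letters and was not tested as a binding site.

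Of the transcription factors, Sox2 (ENSMUSG00000074637, chr3:34650405-34652461, plus strand on GRCm38) is the factor that founds the prosensory domain from which hair cells and supporting cells arise. It stood at 33.3, 34.7 and 34.0 CPM in Wild-type, 34.8, 38.5 and 40.3 CPM in Clrn1-/-, 38.4, 36.6 and 40.0 CPM in Clrn2-/- and 45.0, 45.3 and 42.7 CPM in Clrn1-/-Clrn2-/-. All Clrn1-/-Clrn2-/- libraries lay above the other 9. The log2 fold change against Wild-type was 0.38 ± 0.06 (SE, n = 3 libraries a genotype) in Clrn1-/-Clrn2-/- mice (adjusted p = 5.77e-05). In the single mutants it was 0.16 ± 0.06 in Clrn1-/- (adjusted p = 0.049) and 0.17 ± 0.06 in Clrn2-/- (adjusted p = 0.051), on either side of the threshold with nearly equal values. The first passed in 5 of 19 alternatives, with adjusted p from 0.00987 to 0.172, and was lost with a replicate block (adjusted p = 0.0563). The second passed in 7 of 19 alternatives, with adjusted p from 0.0191 to 0.145. Sox2 lies within Sox2ot, a longer transcript on the same strand, so reads of the shared bases cannot be assigned with certainty.

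Sox9 (ENSMUSG00000000567, chr11:112782224-112787760, plus strand) keeps progenitors in the early otic epithelium and is also the master factor of cartilage. It stood at 77.7, 66.0 and 73.2 CPM in Wild-type, 89.1, 84.1 and 86.5 CPM in Clrn1-/-, 86.8, 87.3 and 99.7 CPM in Clrn2-/- and 101, 108 and 111 CPM in Clrn1-/-Clrn2-/-, with every mutant library above every Wild-type library. Its log2 fold change was 0.26 ± 0.06 in Clrn1-/- (adjusted p = 0.00651), 0.34 ± 0.06 in Clrn2-/- (adjusted p = 0.00203) and 0.56 ± 0.06 in Clrn1-/-Clrn2-/- mice (adjusted p = 3.79e-06). The last lies just under the minimum fold, and Sox9 was called without Wild-type replicate 1 (0.61) or without Clrn1-/-Clrn2-/- replicate 1 (0.59). Of 20 cartilage and bone markers, 18 were tested, and Col9a1, Ibsp, Cnmd and Col2a1 were called higher and Bglap2 and Hapln1 lower in Clrn1-/-Clrn2-/- mice, with a median log2 fold change of 0.32. Their summed level was 2454 to 2701 CPM in Wild-type, 3055 to 3475 in Clrn1-/-, 2696 to 2828 in Clrn2-/- and 3574 to 3830 in Clrn1-/-Clrn2-/- libraries. It thus lay above Wild-type in Clrn1-/- and Clrn1-/-Clrn2-/- libraries and overlapped Wild-type in Clrn2-/- libraries, where Sox9 was higher by adjusted p, as was Fgfr3, which cartilage also makes. The part of these cells in the Sox9 and Fgfr3 results was not tested. In bulk tissue, fewer cells of a type and less RNA per cell cannot be told apart.

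Sox10 (ENSMUSG00000033006, chr15:79154908-79165240, minus strand) is shared by supporting cells, Schwann cells and melanocytes. It had the highest level per length of the 8 and stood at 245, 233 and 239.8 CPM in Wild-type, 265, 267 and 252 CPM in Clrn1-/-, 261, 242 and 258 CPM in Clrn2-/- and 319, 336 and 317 CPM in Clrn1-/-Clrn2-/-. The Clrn1-/-Clrn2-/- libraries lay clear above the other 9, and the Clrn2-/- libraries overlapped Wild-type. Against Wild-type it differed by 0.13 ± 0.04 on the log2 scale in Clrn1-/- (adjusted p = 0.0409), 0.08 ± 0.04 in Clrn2-/- (adjusted p = 0.234) and 0.44 ± 0.04 in Clrn1-/-Clrn2-/- mice (adjusted p = 1.24e-06). For Clrn1-/- the adjusted p ended above 0.05 with a replicate block (0.0517), without a filter on low counts (0.0851) and without any of 4 libraries, Wild-type replicates 2 and 3 and Clrn1-/- replicates 1 and 2 (0.068 to 0.116). Of 21 Schwann cell markers, Foxd3 and Gldn were called higher in Clrn1-/-Clrn2-/- mice and none lower (background 5.88% and 4.02%), and the summed level of the 21 was 24030 to 25200 CPM in Wild-type and 23180 to 24850 CPM in Clrn1-/-Clrn2-/- libraries, which overlapped. Of 16 tested markers of stria and melanocytes, Tyrp1, Met and Pmel were called higher and Esrrb, Dct and Kcne1 lower, with summed levels of 1061 to 1387 CPM and 1108 to 1180 CPM.

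Prox1 (ENSMUSG00000010175, chr1:190118035-190170714, minus strand) was the only member to fall. It stood at 102, 101 and 109 CPM in Wild-type, 79.8, 78.5 and 77.2 CPM in Clrn1-/-, 78.7, 73.3 and 75.8 CPM in Clrn2-/- and 56.4, 58.3 and 60.9 CPM in Clrn1-/-Clrn2-/-. Each single mutant lay below Wild-type and above Clrn1-/-Clrn2-/- mice, and no library crossed from its step to the next. Its log2 fold change against Wild-type was -0.41 ± 0.04 in Clrn1-/- (adjusted p = 6.48e-06), -0.46 ± 0.04 in Clrn2-/- (adjusted p = 8.15e-06) and -0.83 ± 0.04 in Clrn1-/-Clrn2-/- mice (adjusted p = 1.61e-09). Against the single mutants, Clrn1-/-Clrn2-/- libraries were lower by a log2 fold change of -0.42 ± 0.04 (Clrn1-/-, adjusted p = 3.64e-06) and -0.37 ± 0.04 (Clrn2-/-, adjusted p = 2.01e-05).

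Prox1 is also made by lymphatic endothelium, some neurons and muscle. Of 20 neuronal markers, 5 were called lower in Clrn1-/-Clrn2-/- mice (Snap25, Thy1, Nefh, Nefl and Ina) and 2 higher (Prph and Gap43), with a median log2 fold change of -0.405. The summed neuronal level was 13920 to 15250 CPM in Wild-type, 12740 to 13270 in Clrn1-/-, 12050 to 13870 in Clrn2-/- and 9796 to 9973 in Clrn1-/-Clrn2-/- libraries, so it moved with Prox1. Of 11 tested markers of lymphatic and blood vessel endothelium, Lyve1 was called higher and none lower (background 5.88% and 4.02%), and their summed level was 337.3 to 375.6 CPM in Wild-type and 383.8 to 393.9 CPM in Clrn1-/-Clrn2-/- libraries. Of 9 tested skeletal muscle markers, Myl1 and Mylpf were called lower, with summed levels of 12.46 to 14.9 CPM in Wild-type, 40.1 to 46.19 in Clrn1-/-, 9.779 to 12 in Clrn2-/- and 5.32 to 7.147 in Clrn1-/-Clrn2-/- libraries. The part of neurons and muscle in the Prox1 result was not tested. Prox1 overlaps the antisense genes Prox1os and Gm28172, from which the stranded counts separate it.

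Fgfr3 (ENSMUSG00000054252, chr5:33721674-33737068, plus strand) sets the number of pillar cells in development. It stood at 58.7, 68.6 and 69.6 CPM in Wild-type, 85.1, 97.6 and 109 CPM in Clrn1-/-, 83.9, 78.0 and 106 CPM in Clrn2-/- and 118, 128 and 132 CPM in Clrn1-/-Clrn2-/-, with the mutant libraries all above Wild-type and the single mutants spread more widely than Wild-type. On the log2 scale it was higher by 0.57 ± 0.10 in Clrn1-/- (adjusted p = 0.000861), 0.45 ± 0.10 in Clrn2-/- (adjusted p = 0.0096) and 0.94 ± 0.10 in Clrn1-/-Clrn2-/- mice (adjusted p = 3.39e-06). Fgfr3 was just under the minimum fold in Clrn1-/- mice and was called there without Wild-type replicate 2 (0.60), Wild-type replicate 3 (0.61) or Clrn1-/- replicate 1 (0.66).

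The ligands and targets of this receptor were read from a list of 28 genes of fibroblast growth factor (FGF) signalling, of which 27 were matched in the count tables and 26 were tested. With both genes lost, 7 were called higher and Fgf1 lower, 14 were higher and 6 lower by adjusted p alone, and the median log2 fold change was 0.172, beside 0.001 over all genes. The background was 5.88% called higher and 4.02% lower, and 19.1% and 17.9% by adjusted p alone. Fgf8, the ligand that inner hair cells send to pillar cells, stood at 0.0281, 0 and 0.0759 CPM in Wild-type, 1.04, 0.569 and 1.25 CPM in Clrn1-/-, 0.941, 0.765 and 1.15 CPM in Clrn2-/- and 1.57, 1.55 and 1.44 CPM in Clrn1-/-Clrn2-/-. Wild-type libraries thus held 0 to 3 counts of Fgf8, and the log2 fold change was 4.60 (95% interval 3.48 to 5.72) in Clrn1-/-, 4.61 (3.49 to 5.73) in Clrn2-/- and 5.28 (4.23 to 6.32) in Clrn1-/-Clrn2-/- mice, with adjusted p = 1.26e-05, 3.8e-05 and 5.48e-07. Those sizes rest on very few Wild-type counts and depend on the small count that edgeR adds to each library. Fgf20, a ligand of the early sensory epithelium, had 0.890 ± 0.412 CPM (SD, n = 3) in Wild-type and a log2 fold change of 0.12 ± 0.33 in Clrn1-/-Clrn2-/- mice (adjusted p = 0.821).

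The genes called higher were Flrt3, Fgfrl1, Dusp6, Etv4, Il17rd, Etv5 and Fgf8. Dusp6, a phosphatase induced by ERK signalling, stood at 21.7, 19.6 and 20.1 CPM in Wild-type, 30.0, 26.8 and 28.8 CPM in Clrn1-/-, 28.2, 27.7 and 26.6 CPM in Clrn2-/- and 40.5, 43.4 and 43.4 CPM in Clrn1-/-Clrn2-/-, a log2 fold change of 1.05 ± 0.06 in Clrn1-/-Clrn2-/- mice (adjusted p = 2.46e-09). Etv5, an ETS factor induced by FGF, stood at 17.3, 19.5 and 14.5 CPM in Wild-type and 31.7, 30.0 and 30.4 CPM in Clrn1-/-Clrn2-/- (log2 fold change 0.84 ± 0.09, adjusted p = 2.08e-06) and was called in Clrn2-/- mice as well (0.64 ± 0.09, adjusted p = 0.000192). The Clrn2-/- call for Etv5 was lost without Wild-type replicate 3 (0.54). In Clrn1-/- mice Etv5 stood at 23.6, 24.2 and 27.4 CPM, and its log2 fold change of 0.55 lay just under the minimum fold. It was called there with library size alone (0.60), without Wild-type replicate 2 (0.66) and without Clrn1-/- replicate 1 (0.60). Fgf1, a ligand with a high level in this tissue, fell from 431, 449 and 429 CPM to 289, 291 and 292 CPM (log2 fold change -0.59 ± 0.04, adjusted p = 4.15e-08), and ended under the minimum fold with library size alone (-0.55), with unstranded counts (-0.58) and without Wild-type replicate 2 (-0.57). The sister receptors Fgfr1 (0.18 ± 0.05, adjusted p = 0.00658) and Fgfr2 (0.15 ± 0.05, adjusted p = 0.0343) were higher by small amounts and not called. Fgfr2 lost its adjusted p under several alternatives, and without Wild-type replicate 3 it stood at 0.09 (adjusted p = 0.219) and Fgfr1 at 0.12 (adjusted p = 0.0495).

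**Figure D2:**
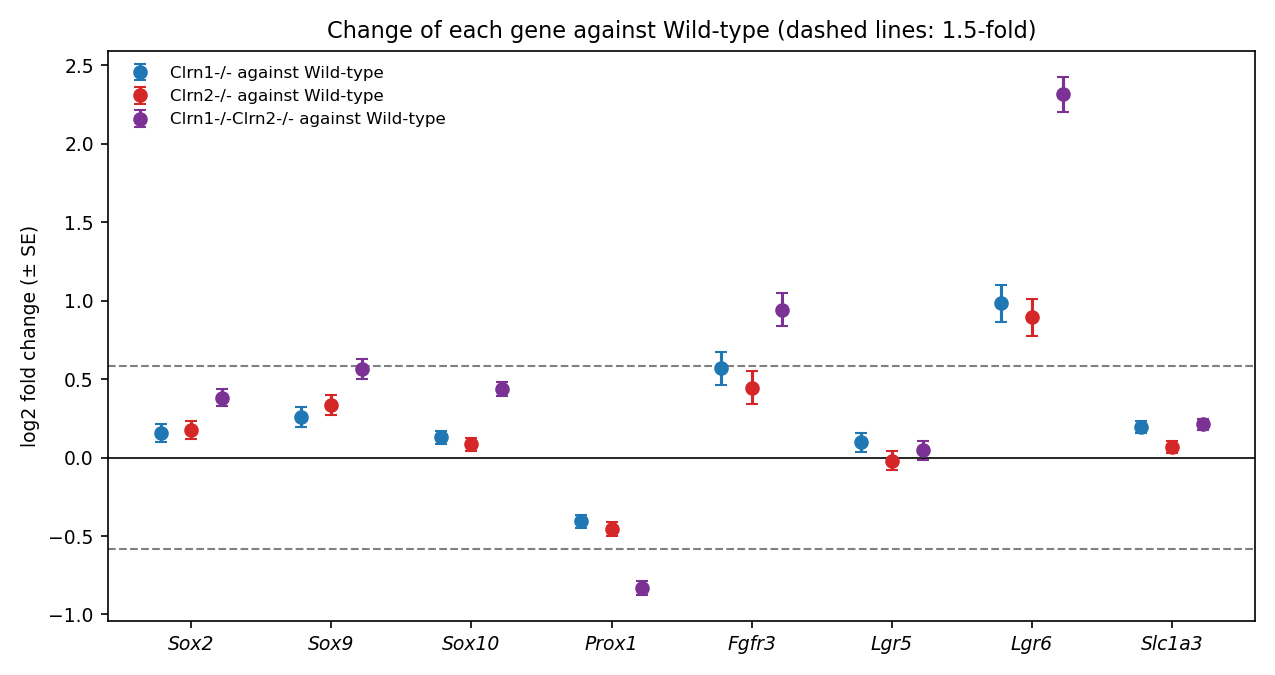
Log2 fold change (± SE) of the 8 genes in each mutant against Wild-type, with dashed lines at the minimum of 1.5-fold. In Clrn1-/-Clrn2-/- mice Lgr6 and Fgfr3 lie above and Prox1 lies below these lines, while Lgr5 stays within 0.10 of 0 in all 3 mutants.

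The R-spondin receptors parted. Lgr6 (ENSMUSG00000042793, chr1:134983301-135105276, minus strand), which marks fewer supporting cells than Lgr5, stood at 4.33, 4.60 and 4.25 CPM in Wild-type, 8.89, 7.97 and 9.19 CPM in Clrn1-/-, 7.18, 7.71 and 9.58 CPM in Clrn2-/- and 19.6, 24.1 and 21.9 CPM in Clrn1-/-Clrn2-/-. The 4 genotypes formed 3 levels without overlap, with Wild-type lowest, both single mutants together and Clrn1-/-Clrn2-/- mice highest. The log2 fold change was 0.98 ± 0.12 in Clrn1-/- (adjusted p = 1.72e-05), 0.89 ± 0.12 in Clrn2-/- (adjusted p = 0.000123) and 2.32 ± 0.11 in Clrn1-/-Clrn2-/- mice (adjusted p = 6.05e-10), and all 3 calls held in every alternative tried. Lgr6 was also the only member called between mutants, higher in Clrn1-/-Clrn2-/- than in Clrn1-/- (1.33 ± 0.10, adjusted p = 1.76e-07) and than in Clrn2-/- mice (1.42 ± 0.10, adjusted p = 2.72e-07).

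Lgr5 (ENSMUSG00000020140, chr10:115450311-115587780, minus strand), the marker of Deiters' and pillar cells that can turn into hair cells in the newborn cochlea, stood at 31.7, 28.8 and 33.5 CPM in Wild-type, 32.6, 35.4 and 32.6 CPM in Clrn1-/-, 31.7, 30.8 and 30.3 CPM in Clrn2-/- and 33.5, 30.9 and 32.6 CPM in Clrn1-/-Clrn2-/-. Libraries of the 4 genotypes overlapped. The log2 fold change was 0.10 (95% interval -0.03 to 0.22) in Clrn1-/-, -0.02 (-0.15 to 0.11) in Clrn2-/- and 0.05 (-0.08 to 0.17) in Clrn1-/-Clrn2-/- mice, with adjusted p = 0.25, 0.879 and 0.598, so a change of 1.5-fold lies outside all 3 intervals. Set against exon length, Lgr6 held 19.01% to 23.9% of the Lgr5 level in Wild-type, 33.76% to 42.23% in Clrn1-/-, 33.99% to 47.3% in Clrn2-/- and 87.72% to 116.6% in Clrn1-/-Clrn2-/- libraries. Both genes thus had about the same level per length only in the Clrn1-/-Clrn2-/- libraries.

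**Figure D3:**
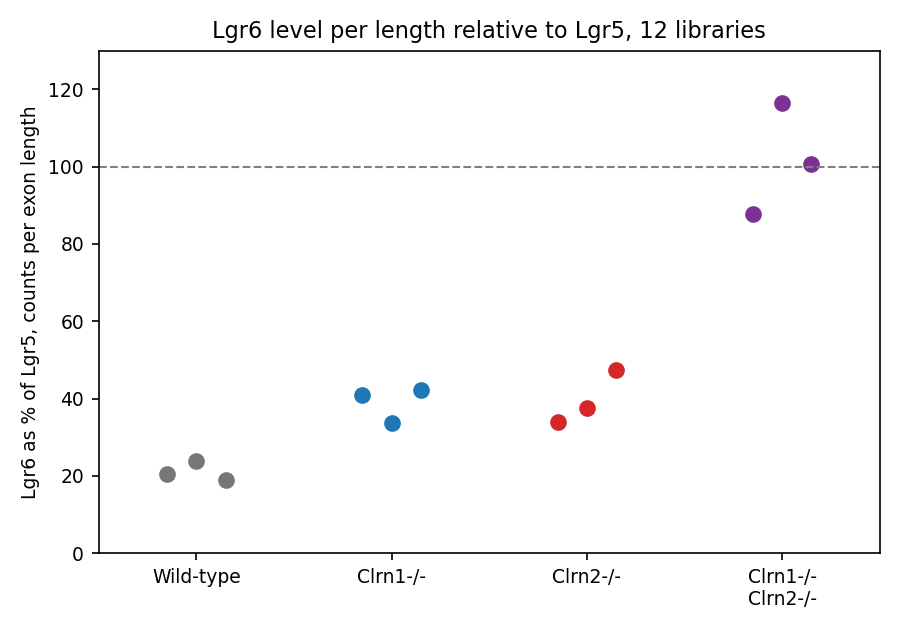
Level of Lgr6 per exon length as a percentage of that of Lgr5 (axis from 0, dashed line at 100%), with a point for each of 12 libraries. Wild-type points lie at 19.01% to 23.9% and Clrn1-/-Clrn2-/- points at 87.72% to 116.6%, on both sides of equality.

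Around these receptors, a list of 32 genes of R-spondin and Wnt signalling had 31 tested. With both genes lost, 8 were called higher and 0 lower (background 5.88% and 4.02%), 22 were higher and 0 lower by adjusted p alone (19.1% and 17.9%), and the median log2 fold change was 0.362. In Clrn1-/- mice none was called (14 higher and 2 lower by adjusted p alone, background 13.6% and 13.3%), and in Clrn2-/- mice none was called (2 higher and 0 lower, background 7.14% and 7.07%). Without Clrn1-/-Clrn2-/- replicate 2 the count called higher fell from 8 to 5.

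Among the ligands, Rspo2 stood at 10.9, 8.19 and 10.8 CPM in Wild-type, 10.8, 7.99 and 10.5 CPM in Clrn1-/-, 11.6, 11.3 and 11.7 CPM in Clrn2-/- and 16.6, 17.9 and 18.3 CPM in Clrn1-/-Clrn2-/-. Clrn1-/-Clrn2-/- libraries lay above all others (log2 fold change 0.82 ± 0.11 against Wild-type, adjusted p = 2.99e-05). Rspo1 (0.08 ± 0.08, adjusted p = 0.511) and Rspo3 (-0.35 ± 0.19, adjusted p = 0.167) did not pass, although Rspo3 was called lower without Wild-type replicate 3 (-0.61 in Clrn1-/-Clrn2-/- and -0.63 in Clrn1-/- mice), and Rspo4 was near 0 in all libraries and was not tested. Lgr4, the most widely expressed R-spondin receptor, was higher by 0.26 ± 0.05 in Clrn1-/- (adjusted p = 0.00104) and by 0.18 ± 0.05 in Clrn1-/-Clrn2-/- mice (adjusted p = 0.00844), without reaching the minimum fold, and the second value missed the threshold without Wild-type replicate 3 or without Clrn1-/-Clrn2-/- replicate 3 (adjusted p up to 0.0564).

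Fzd7, a receptor for Wnt ligands, stood at 52.4, 52.3 and 48.3 CPM in Wild-type and 88.9, 94.1 and 94.8 CPM in Clrn1-/-Clrn2-/- (log2 fold change 0.86 ± 0.05, adjusted p = 1.02e-08). Nkd2, an inhibitor induced by Wnt signalling, stood at 13.7, 14.5 and 13.5 CPM in Wild-type and 21.5, 23.7 and 24.5 CPM in Clrn1-/-Clrn2-/- (log2 fold change 0.74 ± 0.09, adjusted p = 1.28e-05). For both genes the Clrn1-/-Clrn2-/- and Wild-type libraries did not overlap.

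The transporter gene Slc1a3 (ENSMUSG00000005360, chr15:8634124-8710764, minus strand) clears glutamate around the inner hair cell and is also made by satellite glia. It stood at 123, 128 and 121 CPM in Wild-type, 142, 143 and 139.5 CPM in Clrn1-/-, 130.2, 128 and 131 CPM in Clrn2-/- and 148, 143 and 139 CPM in Clrn1-/-Clrn2-/-. Clrn1-/- and Clrn1-/-Clrn2-/- libraries lay above the other 6, and Clrn2-/- overlapped Wild-type. Slc1a3 differed from Wild-type by 0.19 ± 0.04 on the log2 scale in Clrn1-/- (adjusted p = 0.00152), 0.07 ± 0.04 in Clrn2-/- (adjusted p = 0.273) and 0.21 ± 0.04 in Clrn1-/-Clrn2-/- mice (adjusted p = 0.000389), all below the minimum fold. Of the 8 members, Slc1a3 alone differed between the single mutants by adjusted p, higher in Clrn1-/- by 0.12 ± 0.04 (adjusted p = 0.0322), a value lost in 7 of 19 alternatives (adjusted p up to 0.126). Slc1a3 overlaps Gm37310 on the same strand, so reads of any shared bases cannot be assigned with certainty.

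Of 12 genes of glutamate transport and turnover besides Slc1a3, 11 were tested, and in Clrn1-/-Clrn2-/- mice none was called higher and Gls2 and Slc38a5 were called lower (background 5.88% and 4.02%), with 0 higher and 8 lower by adjusted p alone (19.1% and 17.9%) and a median log2 fold change of -0.394. Gls2, a glutaminase, fell from 21.1, 19.8 and 23.9 CPM in Wild-type to 11.6, 12.2 and 11.8 CPM (log2 fold change -0.86 ± 0.09, adjusted p = 2.28e-06). Slc38a5, a glutamine transporter, had 3.06, 3.64 and 1.72 CPM and 2.03, 1.49 and 1.06 CPM, whose libraries overlapped (log2 fold change -0.89 ± 0.26, adjusted p = 0.0126). That call was lost without Wild-type replicate 2 (adjusted p = 0.0663) and without Clrn1-/-Clrn2-/- replicate 3 (adjusted p = 0.0711). Slc1a2, the other main glial glutamate transporter, had 80.3, 97.5 and 60.6 CPM in Wild-type and 67.6, 56.2 and 57.7 CPM in Clrn1-/-Clrn2-/-, and these libraries overlapped. Its log2 fold change of -0.39 ± 0.14 (adjusted p = 0.0423) ranged from -0.23 without Wild-type replicate 2 (adjusted p = 0.22) to -0.57 without Wild-type replicate 3, and missed the threshold with limma-voom and DESeq2 too. Glul, which turns glutamate into glutamine, did not pass (0.17 ± 0.09, adjusted p = 0.158).

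Within the wider Sox family, 16 genes besides the members were listed and 13 tested, and in Clrn1-/-Clrn2-/- mice Sox4 and Sox21 were called higher and none lower (background 5.88% and 4.02%). Sox21, a factor of supporting cells and their precursors, stood at 11.5, 11.8 and 12.9 CPM in Wild-type, 12.1, 12.4 and 12.6 CPM in Clrn1-/-, 15.4, 14.2 and 16.9 CPM in Clrn2-/- and 25.3, 27.1 and 25.4 CPM in Clrn1-/-Clrn2-/-, a log2 fold change of 1.10 ± 0.07 in Clrn1-/-Clrn2-/- mice (adjusted p = 1.3e-08). Sox4 had 48.3, 42.0 and 46.3 CPM in Wild-type and 68.0, 77.4 and 68.0 CPM in Clrn1-/-Clrn2-/- (log2 fold change 0.64 ± 0.06, adjusted p = 4.51e-07), a call lost without Wild-type replicate 2 (0.58) and without Clrn1-/-Clrn2-/- replicate 2 (0.57). Sox8, the third SoxE gene beside Sox9 and Sox10, was lower by adjusted p (-0.27 ± 0.06, adjusted p = 0.00196).

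Notch signalling keeps supporting cells from becoming hair cells, and 22 of its 23 listed genes were tested. With both genes lost, Notch1, Heyl and Lfng were called higher and none lower (background 5.88% and 4.02%), 11 were higher and 2 lower by adjusted p alone (19.1% and 17.9%), and the median log2 fold change was 0.189. Heyl, a target of the pathway, stood at 29.6, 26.3 and 26.8 CPM in Wild-type and 49.3, 54.5 and 51.9 CPM in Clrn1-/-Clrn2-/- (log2 fold change 0.91 ± 0.08, adjusted p = 4.04e-07). Lfng, a glycosyltransferase that tunes the Notch receptor, stood at 18.1, 19.8 and 19.6 CPM in Wild-type and 34.7, 36.2 and 34.3 CPM in Clrn1-/-Clrn2-/- (log2 fold change 0.87 ± 0.07, adjusted p = 1.53e-07). The receptor Notch1 had 71.3, 60.0 and 66.8 CPM in Wild-type and 112, 115 and 106 CPM in Clrn1-/-Clrn2-/- (log2 fold change 0.75 ± 0.07, adjusted p = 7.76e-07).

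Further supporting cell genes, with those of the tectorial membrane that supporting cells secrete, made a list of 30, all tested. With both genes lost, 15 were called higher and S100b lower (background 5.88% and 4.02%), with a median log2 fold change of 0.556. In Clrn1-/- mice Cd44 and Tectb were called higher and S100b lower, and in Clrn2-/- mice Id1, Otog, Otoa, Otogl and Tectb were called higher. Cd44 (0.55) and S100b (-0.545) in Clrn2-/- and Otog (0.53) and Otoa (0.54) in Clrn1-/- mice lay just under the minimum fold. Each of these became a call in at least 1 alternative, while Otogl in Clrn1-/- mice (0.38) did not. None of the list was called between the single mutants. Otoa, the otoancorin of the spiral limbus, stood at 138, 128 and 162 CPM in Wild-type, 210.3, 202 and 210.1 CPM in Clrn1-/-, 243, 204 and 247 CPM in Clrn2-/- and 413, 436 and 444 CPM in Clrn1-/-Clrn2-/- (log2 fold change 1.59 ± 0.08 in Clrn1-/-Clrn2-/-, adjusted p = 8.37e-10). Ceacam16, a tectorial membrane protein, had 1303, 1267 and 1475 CPM in Wild-type and 3718, 4148 and 4020.4 CPM in Clrn1-/-Clrn2-/- (log2 fold change 1.56 ± 0.09, adjusted p = 6.24e-09). Both had all Clrn1-/-Clrn2-/- libraries above all others.

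Tectb, the beta-tectorin of the same membrane, stood at 24.4, 27.5 and 29.0 CPM in Wild-type, 49.9, 54.7 and 71.9 CPM in Clrn1-/-, 69.0, 65.5 and 78.3 CPM in Clrn2-/- and 43.9, 52.8 and 53.6 CPM in Clrn1-/-Clrn2-/- and had its highest mean in Clrn2-/- mice, whose libraries overlapped those of Clrn1-/- mice. Cd44, a marker of outer pillar cells, had 30.3, 29.2 and 33.1 CPM in Wild-type and 67.0, 73.2 and 70.8 CPM in Clrn1-/-Clrn2-/- (log2 fold change 1.19 ± 0.07, adjusted p = 6.65e-09), and Otog and Otogl, genes of 2 otogelin proteins of the acellular membranes, were higher by 1.15 ± 0.08 and 0.71 ± 0.08 in Clrn1-/-Clrn2-/- mice (adjusted p = 2.42e-08 and 6.51e-06). S100b, a calcium-binding protein that glia also make, fell from 1129, 1099.6 and 1323 CPM to 649.7, 642 and 678 CPM (log2 fold change -0.85 ± 0.08, adjusted p = 6.85e-07). Leaving out Wild-type replicate 3 (-0.52) or Clrn1-/- replicate 2 (-0.55) took S100b under the minimum fold in Clrn1-/- mice. Among the hair cell markers reported here, Strc, Chrna9, Ocm and Tmc1 were called higher and Gfi1 lower in Clrn1-/-Clrn2-/- mice, and the whole list had summed levels of 652 to 724.2 CPM in Wild-type and 781.8 to 813.2 CPM in Clrn1-/-Clrn2-/- libraries.

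**Figure D4:**
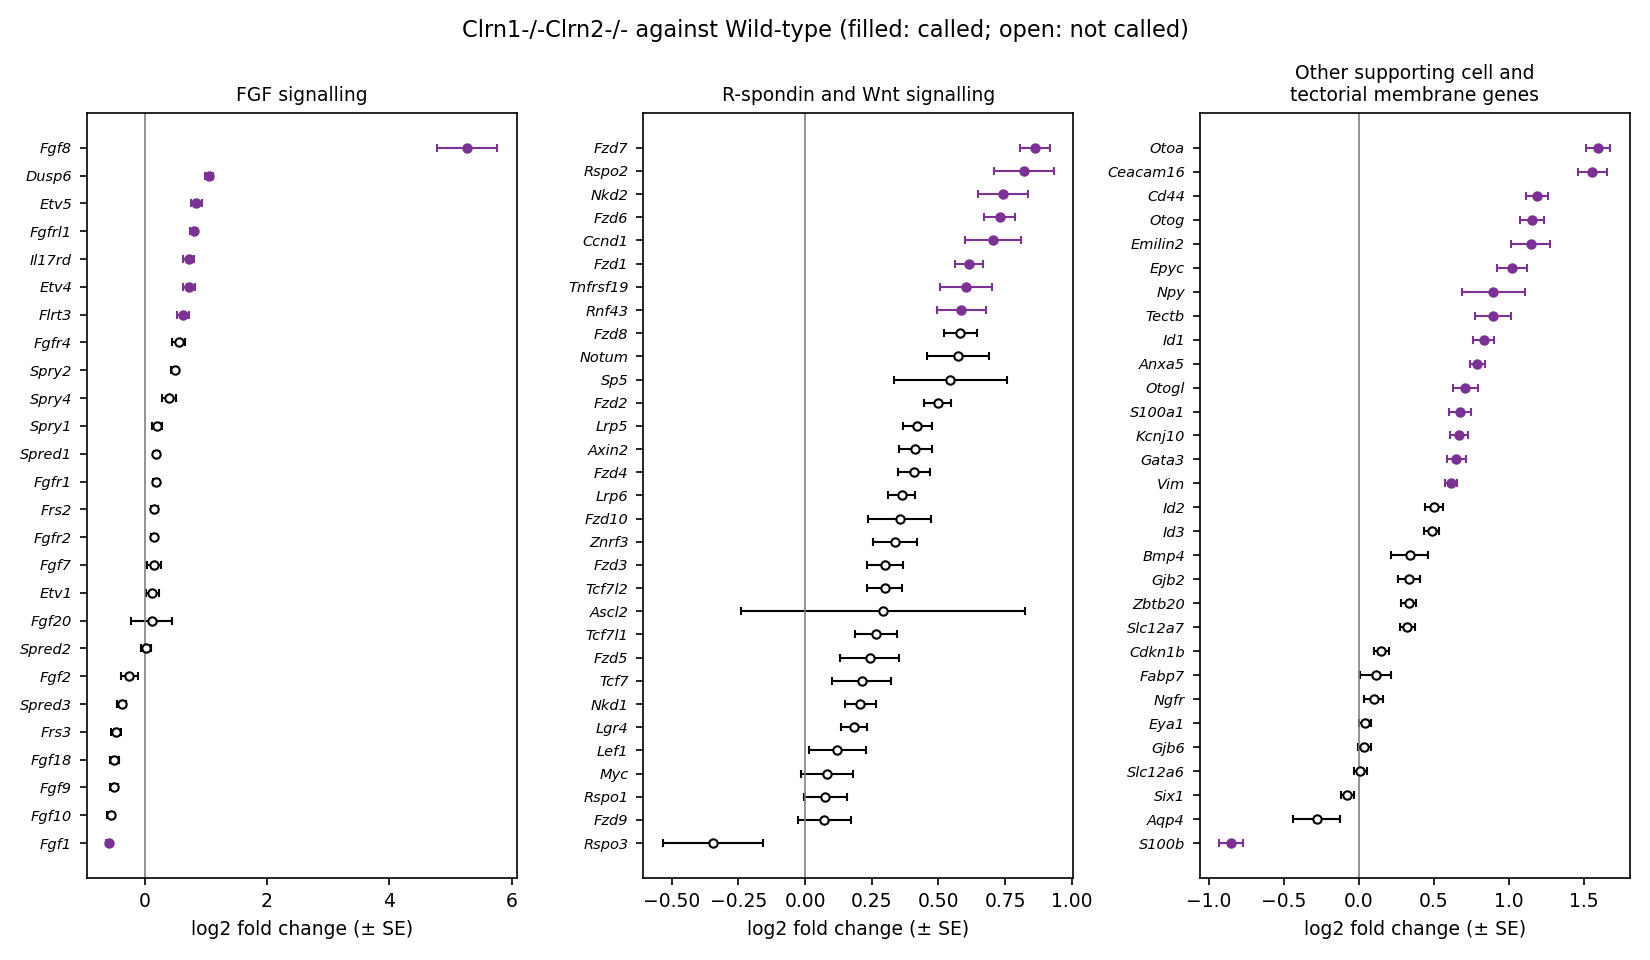
Log2 fold change (± SE) in Clrn1-/-Clrn2-/- against Wild-type mice of every tested gene on the lists of FGF signalling (26), R-spondin and Wnt signalling (31) and other supporting cell and tectorial membrane genes (30), with filled points for called genes and a horizontal scale for each list. The called genes are all to the right except Fgf1 and S100b.

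The mutants were then compared with each other. Between Clrn1-/- and Clrn2-/- mice no member was called, where 4.73% of all genes were, and Slc1a3 alone passed by adjusted p (18.5% of all genes). Lgr6 was the 1 member called between Clrn1-/-Clrn2-/- and Clrn1-/- mice (7.23%) and between Clrn1-/-Clrn2-/- and Clrn2-/- mice (5.1%). By adjusted p alone, 6 members differed from Clrn1-/- (30.4%) and 7 from Clrn2-/- mice (27.6%), with Lgr5 absent from both counts. Fgfr3 dropped out of the first count without Clrn1-/- replicate 1 (adjusted p = 0.0661) and without Clrn1-/-Clrn2-/- replicate 3 (adjusted p = 0.0534). The second count fell to 4 without Clrn2-/- replicate 2, to 5 without Clrn1-/-Clrn2-/- replicate 1 or 2, and Fgfr3 was called against Clrn2-/- mice without Clrn2-/- replicate 3 (0.63).

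Whether loss of both genes changed a member by more or less than the sum of the single losses was tested with an interaction term of a model with both genotypes. No member was called (5.5% of all genes), and Sox10 alone passed by adjusted p (17.4%). Sox10 rose by 0.44 against a sum of 0.21, an interaction of 0.22 ± 0.06 (adjusted p = 0.0204), which lost its adjusted p without any of Wild-type replicate 1, Clrn1-/- replicate 3, Clrn2-/- replicate 2 and Clrn1-/-Clrn2-/- replicate 2 (0.0654 to 0.0805). Lgr6 rose by 2.32 against a sum of 1.88, an interaction of 0.44 ± 0.16 (adjusted p = 0.0648), and passed without Clrn2-/- replicate 3 (0.0147), without Clrn1-/-Clrn2-/- replicate 1 (0.0474) and with no filter on low counts (0.0253). Prox1 fell by 0.83 on the log2 scale where the sum was a fall by 0.86, and its interaction was 0.03 (95% interval -0.10 to 0.17). The interaction of Fgfr3 was -0.07 (-0.38 to 0.24), of Sox9 -0.03 (-0.22 to 0.15) and of Sox2 0.05 (-0.12 to 0.22).

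**Figure D5:**
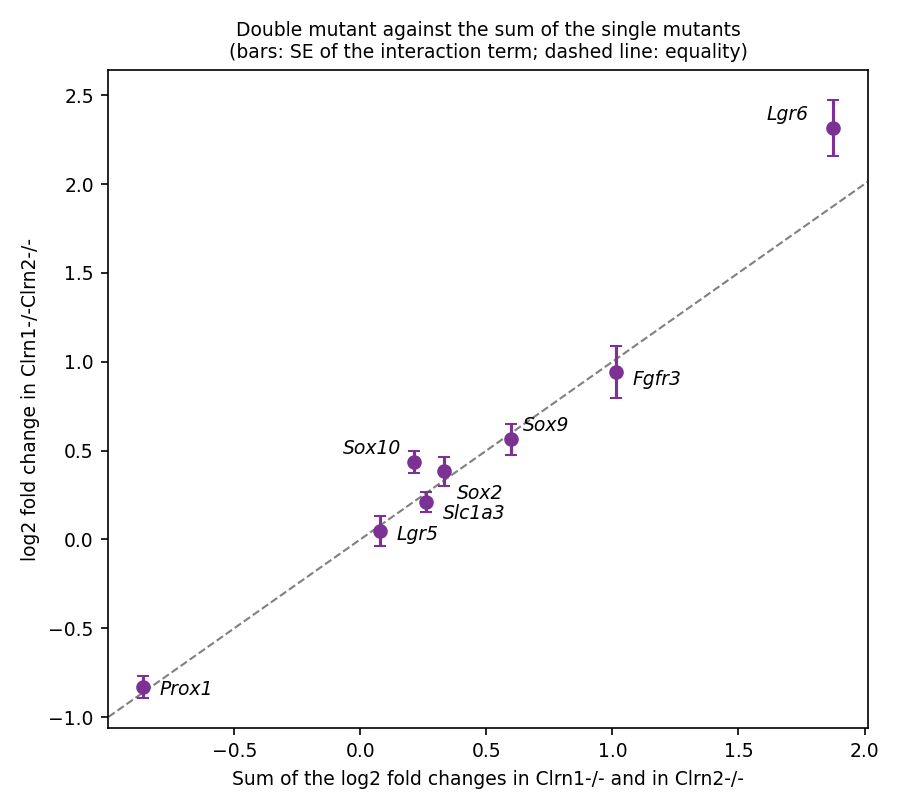
Log2 fold change of each of the 8 genes in Clrn1-/-Clrn2-/- mice against the sum of its log2 fold changes in Clrn1-/- and Clrn2-/- mice, with the SE of the interaction term and a dashed line at equality. Sox10 and Lgr6 lie above the line and the other 6 genes lie within about 1 SE of it.

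Set in order by CPM per kilobase of exon, Wild-type members ran from Sox10 (78.4 ± 1.85, SD, n = 3) over Sox9 (17.5 ± 1.42), Sox2 (16.5 ± 0.338), Slc1a3 (14.5 ± 0.425), Prox1 (12.4 ± 0.484), Fgfr3 (9.17 ± 0.844) and Lgr5 (3.05 ± 0.228) to Lgr6 (0.641 ± 0.0270). Sox9 and Sox2 were neighbours within their spread. In Clrn1-/-Clrn2-/- mice the order was Sox10 (106 ± 3.44), Sox9 (25.8 ± 1.25), Sox2 (21.6 ± 0.695), Fgfr3 (17.6 ± 1.03), Slc1a3 (16.8 ± 0.538), Prox1 (6.98 ± 0.273), Lgr6 (3.19 ± 0.324) and Lgr5 (3.15 ± 0.128). Prox1 had moved below Fgfr3, and the pairs Fgfr3 with Slc1a3 and Lgr6 with Lgr5 were within their spread.

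The genes whose log2 CPM followed each member most closely over the 12 libraries were found by Pearson's r among 12452 genes, a description that takes the genotype differences with it. For Lgr6 they were Tspan14 (0.992), Twf1 (0.991) and Suco (0.99), and for Prox1 they were Ppip5k1 (0.988), Rcan2 (0.987) and Fam57b (0.986). Sox10 was followed by Tmbim6 (0.983), Sept9 (0.982) and Tmem184a (0.981), and Fgfr3 by Wnt7a (0.978), Mcc (0.976) and Pip5k1a (0.971). Sox2 was followed by Aqp11 (0.974), Acss3 (0.963) and Pde6d (0.962), and Sox9 by Cutal (0.97), Syne2 (0.964) and Muc15 (0.963). Slc1a3 went with Mansc4 (0.967), Lyz2 (0.966) and Zfp407 (0.961). The closest genes to Lgr5 reached lower values, with Gm6206 at 0.848, Acer2 at 0.836 and Sgk1 at 0.822.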

How the data were processed

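Per the labels and the study's methods, the authors prepared stranded poly-A libraries, aligned paired reads with STAR to GRCm38.p6 and deposited whole-number counts per gene, 1 file a library, on Gencode M24. The reverse-strand counts were used, since they hold 95.2% to 95.6% of stranded counts, and the 4 rows of unassigned reads (13.5% to 15.8%) were left out. Genes with too few counts were removed (filterByExpr, minimum count 10), and 1 model of all 12 libraries with genotype as the only term was fitted with TMM scaling by the quasi-likelihood test of edgeR 4.0.16 in R 4.3.3, with Benjamini-Hochberg adjustment over 19052 genes. limma 3.58.1 (voom) and DESeq2 1.42.0 served as alternatives. Coordinates and exon lengths came from Gencode M21 on GRCm38.

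The members and lists were chosen with earlier results of these data known. Beside the members, the genes given with values are up to 3 called genes a direction, list and mutant at 1 CPM or more, a few fixed pathway genes, the 3 genes most like each member among genes of at least 5 CPM, and Clrn1 and Clrn2. Other called genes are named only where a list's calls are counted, and not for every list and mutant. The result of 1 hair cell marker is not reported here. Same-numbered libraries deviated together (correlation over 0.1 for all 3 numbers) only between Wild-type and Clrn1-/-, where the labels do not say what a number marks. No batch is given in the labels.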

Additional observations from a re-analysis of the deposited data

Results flagged for a closer look

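Sox10 changed by more in Clrn1-/-Clrn2-/- mice than the sum of the single mutants, with an interaction of 0.22 ± 0.06 on the log2 scale (edgeR, adjusted p = 0.0204). The interaction also passed for genes of the lists read beside the members. Among signalling and Sox genes it was 0.64 for Rspo2, 0.29 for Fzd7, 0.7 for Sox21 and 0.35 for Lfng, all above the sum, and -3.93 for Fgf8, whose Wild-type libraries held 0 to 3 counts. Among supporting cell and tectorial membrane genes it was 0.36 for Otoa and 0.62 for Ceacam16, and below the sum at -1.63 for Tectb and -0.42 for Otogl. Among markers of other cells it was 0.78 for Slc17a8, -0.8 for Gldn, -0.35 for Snap25, -0.89 for Dmp1, 1.75 for Comp, 1.32 for Ibsp, 0.52 for Cnmd, -0.36 for Hapln1, -1.72 for Pmel and -3.41 for Myl1.

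Counts on the strand opposite to a member entered no main comparison, and only the alternative with unstranded counts took them in. Opposite to Prox1 they had a mean of 6.05 CPM in Clrn1-/- libraries, against 2.735 in Wild-type, 2.233 in Clrn2-/- and 2.34 in Clrn1-/-Clrn2-/- libraries, and made up 6.74% to 7.38% of the stranded Prox1 counts in Clrn1-/- against 2.38% to 2.69% in Wild-type. Prox1os, an antisense gene there that was looked at after these values were seen, was lower in Clrn1-/- mice (log2 fold change -1.21, adjusted p = 2.41e-05) and in Clrn1-/-Clrn2-/- mice (-0.99, adjusted p = 6.01e-05). Gm28172, the other antisense gene there, had 3 to 18 counts a library, with log2 fold changes of 0.48 in Clrn1-/- (adjusted p = 0.343) and -0.91 in Clrn1-/-Clrn2-/- mice (adjusted p = 0.105), and was called lower in Clrn1-/-Clrn2-/- than in Clrn1-/- mice (-1.39, adjusted p = 0.0145). Opposite to Fgfr3 the mean was 0.973 CPM in Clrn1-/-Clrn2-/-, 0.9414 in Clrn1-/-, 0.7088 in Clrn2-/- and 0.7246 CPM in Wild-type libraries. As a share of the stranded Fgfr3 counts it was lower in Clrn1-/-Clrn2-/- (0.639% to 0.964%) than in Wild-type libraries (1.04% to 1.18%). Wild-type libraries had a mean of 0.1789 CPM opposite to Slc1a3, where Clrn1-/- had 0.435 CPM, Clrn2-/- had 0.376 CPM and Clrn1-/-Clrn2-/- had 0.369 CPM. These means rest on few counts a library, 5 to 8 in Wild-type, 14 to 18 in Clrn1-/-, 8 to 19 in Clrn2-/- and 11 to 15 in Clrn1-/-Clrn2-/-. These opposite-strand differences were not tested.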

How the results depend on the processing

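Over all alternatives the calls of Lgr6, Prox1 and Fgfr3 in Clrn1-/-Clrn2-/- mice and of Lgr6 in both single mutants held. For calls, which need both the adjusted p and the minimum fold, 1028 member values kept their direction and their call or lack of one, 8 became calls, 0 calls were lost and 20 changed sign, all of these small and uncalled. Members called higher in Clrn1-/- went from 1 to 2 with library size alone, and ranged from 1 to 2 when 1 library was left out, Fgfr3 being the second. Members called between Clrn1-/-Clrn2-/- and Clrn2-/- ranged from 1 to 2 likewise. With no minimum fold change the counts against Wild-type were 6 higher and 1 lower in Clrn1-/-, 3 and 1 in Clrn2-/- and 6 and 1 in Clrn1-/-Clrn2-/-, and those between mutants were 1 for Clrn1-/- against Clrn2-/-, 6 for Clrn1-/-Clrn2-/- against Clrn1-/-, 7 against Clrn2-/- and 1 for the interaction. With library size alone Sox9 in Clrn1-/-Clrn2-/- mice passed the minimum fold (0.60). Adjusted p alone crossed 0.05 in 53 of 1056 member values and alternatives, over 10 results. A replicate block left each count of called members as it was, and by adjusted p alone took Sox2 (0.0563) and Sox10 (0.0517) out of the Clrn1-/- count, from 6 to 4.

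Signs changed with library size alone for the interaction of Prox1 (-0.0048), for Lgr5 in Clrn2-/- (0.0154) and for Rspo2 in Clrn1-/- mice (0.0156), and with unstranded counts for the interaction of Prox1 (-0.0143). When 1 library was left out, log2 values that changed sign ranged, for interactions, from -0.1736 to 0.0529 for Fgfr3, -0.0946 to 0.0091 for Lgr5, -0.0173 to 0.0578 for Prox1, -0.0227 to 0.0801 for Sox2 and -0.1034 to 0.0149 for Sox9. For members in other comparisons they ranged from -0.0186 to 0.085 for Lgr5 in Clrn1-/-Clrn2-/-, -0.0713 to 0.0322 for Lgr5 in Clrn2-/-, -0.008 to 0.2184 for Lgr6 for Clrn1-/- against Clrn2-/-, -0.0154 to 0.0275 for Slc1a3 for Clrn1-/-Clrn2-/- against Clrn1-/- and -0.0648 to 0.038 for Sox2 for Clrn1-/- against Clrn2-/-. For other genes they ranged from -0.1211 to 0.5605 for Fgf20 in Clrn1-/-, -0.1471 to 0.536 for Fgf20 in Clrn1-/-Clrn2-/-, -0.0452 to 0.6376 for Fgf20 in Clrn2-/-, -0.0389 to 0.0593 for Fgfr1 in Clrn1-/-, -0.0258 to 0.1442 for Rspo1 in Clrn1-/-Clrn2-/-, -0.0232 to 0.1468 for Rspo1 in Clrn2-/-, -0.1486 to 0.1048 for Rspo2 in Clrn1-/-, -0.203 to 0.2573 for Rspo3 in Clrn2-/-, -0.1297 to 0.2103 for Slc1a2 in Clrn1-/- and -0.0901 to 0.0048 for Sox8 in Clrn2-/-. The cause was not tested.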
